A study of Caenorhabditis elegans with 5 samples.

Results

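The proteasome subunit genes of Caenorhabditis elegans were followed in 5 messenger RNA libraries labelled as sorted neurons, 3 from thoc-5(wy822) mutants and 2 from wildtype animals. They were taken by name, as every gene of the deposited table called pas, pbs, rpn or rpt with a number. The rule found 32 genes among 42048, with 7 pas, 7 pbs, 6 rpt and 12 rpn names. All 32 were measured, meaning that at least 2 of the 5 libraries held a normalised count of 10 or more. The gene known as rpn-13, a ubiquitin receptor of the cap, stands in the table under its sequence name C56G2.7, so the name rule leaves it out. Its normalised counts were 144, 172 and 242 in the mutant libraries, against 389.9 and 173 in the wildtype libraries.

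Cells degrade proteins tagged with ubiquitin in the proteasome, a barrel with a cap at its ends. The barrel, or core particle, stacks outer rings of alpha subunits (pas genes), which gate the entrance, on inner rings of beta subunits (pbs genes), some of which cut peptide bonds. The cap has a base with a ring of ATPases (rpt genes), which unfold the substrate, and a lid (rpn genes), which removes the ubiquitin chain. In worms the transcription factor SKN-1A raises the expression of proteasome genes together when proteasome function is impaired.

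Both groups were day 1 adults that had been grown at 16 °C and carried edIs6, a transgene known to express GFP from unc-119 sequence. The mutants also carried thoc-5(wy822), whose lesion the labels do not describe. THOC-5 belongs to the THO complex, which packages new messenger RNA for export from the nucleus. Separate cultures are not named in the labels for libraries of the same group, so the p-values measure the spread between these samples alone, and that spread may be technical.

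Reads counted on genes came to 7.36, 6.80 and 8.69 M in mutant replicates 1, 2 and 3, against 10.3 and 10.2 M in wildtype replicates 1 and 2. The thoc-5 transcript, listed as Y32H12A.2, had normalised counts of 78.3, 34.6 and 12.7 in the mutant libraries and 154 and 122.2 in the wildtype libraries. Marker lists of cell types differed between the groups. Summed over 12 neuronal markers, the share of reads was 0.601% to 0.937% in mutant libraries and 0.0216% to 0.159% in wildtype libraries, and unc-31 was at 0 in wildtype replicate 2. In limma 7 of those 12 genes passed the test as higher in the mutant. Among them was unc-119, whose counts may include reads of the transgene that both groups carried. Muscle markers held 0.944% to 1.37% of mutant reads and 2.43% to 4.95% of wildtype reads, with 5 of 7 passing as lower in the mutant. Epidermal markers held 0.191% to 0.953% of mutant reads and 5.73% to 8.57% of wildtype reads. In both wildtype libraries the muscle and epidermal shares were above the neuronal share, against the label. The muscle share was also above the neuronal share in each mutant library, though only just in mutant replicate 1 (0.944% against 0.937%). Of muscle sums of 54364, 94499 and 115559 normalised counts in mutant replicates 1, 2 and 3, act-4 held 44976, 83941 and 106333. The other muscle markers together lay below the neuronal sum in each mutant library and above it in both wildtype libraries. In mutant replicate 2 the epidermal share was above the neuronal share too (0.953% against 0.601%). There col-19, col-119 and col-140 held 5346, 26092 and 30519 of an epidermal sum of 72266 normalised counts. These genes also held most of the epidermal sum in both wildtype libraries. The other epidermal markers together lay below the neuronal sum in mutant replicate 2 and wildtype replicate 1, and above it in wildtype replicate 2. The epidermal genes that passed as lower, 3 of 7, were col-19, col-119 and col-140. Not passing were rol-6, dpy-13, sqt-3 and bli-1, with log2 fold changes of 2.01, 0.39, -0.04 and -4.38. Lower too were 3 of 7 intestinal, 4 of 7 germline and 1 of 4 sperm markers, and 2 of 3 coelomocyte markers were higher. Over all 13787 tested genes 6.97% passed as higher and 5.92% as lower. The part of these differences in the values of the proteasome genes was not tested.

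No proteasome subunit gene passed the test between the thoc-5(wy822) and wildtype libraries. Of the 32 genes 0 were called higher and 0 lower, where 6.97% of all 13787 tested genes were called higher and 5.92% lower, 12.9% in all (limma on log2 of the normalised count plus 1, Benjamini-Hochberg adjusted p under 0.05). At an unadjusted p under 0.05 stood 2 of the 32, rpn-11 and rpn-6.1, against 38.2% of all tested genes. By the other tools, edgeR called 0 of the 32 and 0.0% of all genes, and DESeq2 called 1, rpn-11, and 27.0% of all genes. An adjusted p under 0.05 was given to 0 of the 32 and to 24.1% of all genes in the authors' deposited table. The calls over all genes, 1777 in limma, numbered 2647 without wildtype replicate 1 and 0 without any other single library, while those among the 32 were 0 in each case. In bulk samples fewer cells of a type and less RNA per cell cannot be told apart.

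The fold changes of the proteasome genes were small beside those of the table. A log2 fold change (mutant over wildtype) within 1 of 0, that is less than 2-fold either way, was found for 30 of the 32, against 35.7% of all tested genes. The exceptions were rpn-11 and rpn-6.1. The median size of the log2 fold change, sign left aside, was 0.40 over the 32 genes and 1.60 over all tested genes. The standard errors of the 32 ranged from 0.39 to 0.86, with a median of 0.47 against 0.90 over all tested genes. Genes of like level were not compared, so the part of expression level in this contrast was not tested. The 95% interval lay within 2 of 0, less than 4-fold either way, for 29 of the 32 and for 15.8% of all tested genes. None of the 32 intervals lay within 1 of 0, so a 2-fold difference was not excluded for any of these genes.

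Most of the fold changes lay below 0, except with reads scaled to the library total or without wildtype replicate 1. With the authors' size factors 8 of the 32 genes lay above 0 and 24 below, with a median log2 fold change of -0.34, against 0.13 over all tested genes. With reads scaled to the library total, an alternative chosen after seeing the data, 22 lay above 0 and 10 below, with a median of 0.12, against 0.57 over all tested genes. Above and below 0 stood 8 and 24 with upper quartile scaling (median -0.38), and 5 and 27 with quantile scaling (median -0.46). In edgeR, with its own scaling, 6 stood above and 26 below (median -0.42). In each of these scalings the median of the proteasome genes lay below that of all genes. With wildtype replicate 1 left out, 16 lay on each side of 0 and the median was -0.03, against 0.10 over all tested genes. With wildtype replicate 2 left out, 4 lay above 0 and 28 below and the median was -0.51, against 0.06 over all tested genes.

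**Figure D1:**
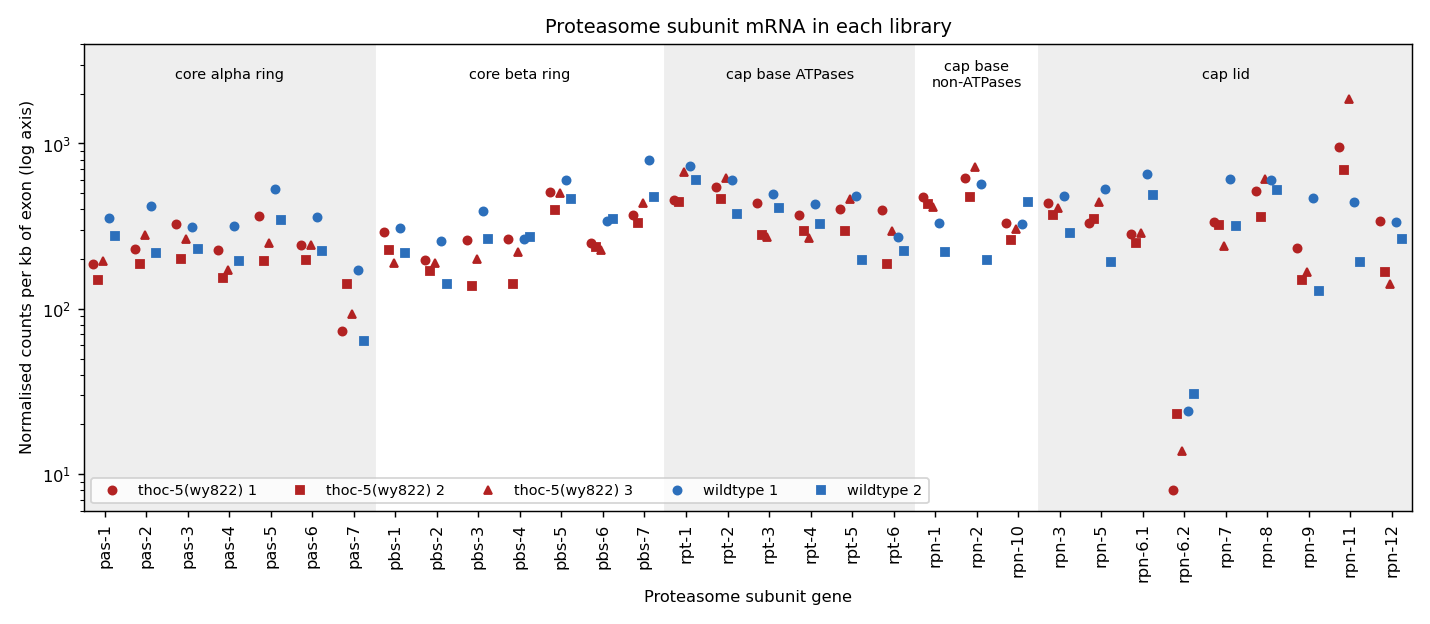
Normalised count per kb of exon of each of the 32 proteasome subunit genes, on a log axis, in the 3 thoc-5(wy822) libraries and the 2 wildtype libraries, grouped by role. The points of both groups overlap for 23 of the 32 genes, while rpn-11 and rpn-1 have all mutant points above the wildtype points.

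As a whole the proteasome genes held 0.278%, 0.167% and 0.198% of the reads in mutant replicates 1, 2 and 3, against 0.210% and 0.110% in wildtype replicates 1 and 2. The exact (Clopper-Pearson) 95% intervals reached at most 0.0038 percentage points to either side, and cover counting error only. Their summed normalised counts were 16018, 12664 and 16771 in the mutant libraries, against 18855 and 11960 in the wildtype libraries. By either measure the groups overlapped, and the wildtype libraries stood farther apart than the mutant libraries did in the summed counts.

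Among single genes, all mutant libraries stood above both wildtype libraries for 2 of the 32, where 30.1% of all tested genes had that order. All mutant libraries stood below both wildtype libraries for 7 of the 32, against 26.5% of all tested genes. Mutant libraries were above for rpn-1 and rpn-11, and below for rpn-6.1, rpn-6.2, pas-1, pbs-3, pbs-4, pbs-6 and pbs-7. The other 23 genes overlapped between the groups.

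The alpha ring genes, which build the gated outer rings of the core, had log2 fold changes of -0.84 to -0.06 with a median of -0.40, and 0 of 7 were called. The gene pas-1 had normalised counts of 175, 141 and 183 in the mutant libraries, against 337 and 262 in the wildtype libraries. It was the only alpha gene whose groups did not overlap, and its log2 fold change was -0.84 (SE 0.44, limma adjusted p = 0.212). For pas-5 the counts were 310.2, 165 and 214 in the mutant libraries, against 456 and 296 in the wildtype libraries. Mutant replicate 1 exceeded wildtype replicate 2, and the log2 fold change was -0.72 (SE 0.49, limma adjusted p = 0.317).

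The gene pas-4 had normalised counts of 201, 135 and 152 in mutant libraries, against 280.0 and 171 in wildtype libraries (log2 fold change -0.45, SE 0.49, limma adjusted p = 0.542). The gene pas-2 had 193, 157 and 235 in mutant libraries, against 354 and 183 in wildtype libraries (log2 fold change -0.40, SE 0.51, limma adjusted p = 0.597). In both the range of the mutant libraries covered wildtype replicate 2. The other alpha genes, pas-3, pas-6 and pas-7, had log2 fold changes of -0.06, -0.33 and -0.09 with adjusted p of 0.635 to 0.943. Per kb of exon, pas-7 was the lowest core gene in both groups, with a mean of 102 in mutant and 118 in wildtype libraries.

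The beta ring genes had log2 fold changes of -0.72 to -0.04 with a median of -0.41, and 0 of 7 were called. The gene pbs-5 encodes the subunit known for the chymotrypsin-like cut. It had normalised counts of 540.5, 419 and 533 in the mutant libraries, against 636 and 486 in the wildtype libraries. These ranges overlapped, and with a log2 fold change of -0.17 the 95% interval was -1.13 to 0.79 (limma adjusted p = 0.787). Per kb of exon, pbs-5 was the highest core gene in the mutant libraries, with a mean of 469.7, while pbs-7 was highest in the wildtype libraries, with a mean of 636.

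Counts of pbs-7, a beta subunit without a cutting site, were 324, 290.2 and 381 in mutant libraries, against 699 and 418 in wildtype libraries. The groups did not overlap, though wildtype replicate 2 stood close to mutant replicate 3, and the log2 fold change was -0.71 (SE 0.44, limma adjusted p = 0.272). For pbs-6, also without a cutting site, the counts were 221, 208 and 199.8 in mutant libraries, against 299 and 307 in wildtype libraries. Its libraries agreed closely within each group, and the log2 fold change was -0.53 (SE 0.41, limma adjusted p = 0.382).

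For pbs-3 the normalised counts were 222, 117 and 171 in mutant libraries, against 329.7 and 224 in wildtype libraries. Mutant replicate 1 and wildtype replicate 2 were almost level, and the log2 fold change was -0.72 (SE 0.51, limma adjusted p = 0.334). The genes pbs-1, pbs-2 and pbs-4 had log2 fold changes of -0.16, -0.04 and -0.41 with adjusted p of 0.583 to 0.959. The first of these encodes the subunit known for the caspase-like cut and the second the one known for the trypsin-like cut.

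The 6 base ATPases, the motor of the cap, had log2 fold changes of -0.48 to 0.30 with a median of -0.05. Of these 6 genes 0 were called, all 6 lay within 0.5 of 0, and in all 6 the groups overlapped. The gene rpt-1 had normalised counts of 692, 673 and 1019 in mutant libraries, against 1107 and 904 in wildtype libraries (log2 fold change -0.36, SE 0.41, limma adjusted p = 0.557). The gene rpt-2 had 799.7, 679.7 and 907 in mutant libraries, against 888 and 555 in wildtype libraries (log2 fold change 0.17, SE 0.42, limma adjusted p = 0.795). These were the highest ATPase genes per kb of exon, rpt-2 in the mutant libraries with a mean of 539.6 and rpt-1 in the wildtype libraries with a mean of 665.

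The gene rpt-3 had normalised counts of 595, 381 and 367 in mutant libraries, against 675 and 551 in wildtype libraries (log2 fold change -0.48, SE 0.43, limma adjusted p = 0.446). Its mutant replicate 1 lay between the wildtype libraries. For rpt-4 the counts were 541, 434 and 392 in mutant libraries, against 629 and 476 in wildtype libraries (log2 fold change -0.28, SE 0.41, limma adjusted p = 0.656). Exons of rpt-4 share 103 bases with the gene rpoa-49 on the other strand, and the library kits do not mark strand. The log2 fold changes of rpt-5 and rpt-6 were 0.30 and 0.18, with adjusted p of 0.706 and 0.809.

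The base also holds subunits that are not ATPases, and 0 of 3 were called. The scaffold gene rpn-1 had normalised counts of 1498, 1371 and 1315 in mutant libraries, against 1050.1 and 700.2 in wildtype libraries. The mutant libraries lay close together and above both wildtype libraries, with a log2 fold change of 0.70 (SE 0.40, 95% interval -0.26 to 1.66, limma adjusted p = 0.244). The second scaffold gene, rpn-2, had 1965, 1498 and 2272 in mutant libraries, against 1805 and 625 in wildtype libraries. Its wildtype libraries stood apart, and the log2 fold change of 0.83 (SE 0.56, limma adjusted p = 0.318) was 0.06 without wildtype replicate 2 and 1.59 without wildtype replicate 1.

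The ubiquitin receptor gene rpn-10 had normalised counts of 426, 336 and 391 in mutant libraries, against 419.5 and 571 in wildtype libraries. Mutant replicate 1 was level with wildtype replicate 1, and the log2 fold change was -0.35 (SE 0.41, limma adjusted p = 0.557). The other receptor gene, rpn-13, which the name rule leaves out, had a log2 fold change of -0.51 (SE 0.55, limma adjusted p = 0.527).

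The lid held both ends of the range. Of its 9 genes 0 were called, 3 lay above 0 and 6 below, and the log2 fold changes ran from -1.05 for rpn-6.1 to 1.87 for rpn-11. The other lid genes had a log2 fold change of -0.96 to 0.22.

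The gene rpn-11 encodes the deubiquitinase of the lid, which cuts ubiquitin chains off the substrate as it enters the base. It lies on chromosome II, 4043055 to 4044546 on the minus strand, in WBcel235. Its normalised counts were 1175, 851 and 2283 in mutant libraries, against 546 and 237 in wildtype libraries. All mutant libraries were above both wildtype libraries, with wide spread inside each group, and the means were 1436 ± 751 in the mutant and 391 ± 219 in the wildtype (SD, n = 3 and n = 2). The log2 fold change was 1.87 (SE 0.60, 95% interval 0.42 to 3.31, limma adjusted p = 0.0759). Over the alternatives it lay between 1.27 and 2.47, with adjusted p of 0.0454 to 0.307, the lowest from DESeq2 and the single one under the threshold. The authors' deposited table gives a log2 fold change of 1.79 with an adjusted p of 0.0573.

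Per kb of exon rpn-11 was the highest of the 32 proteasome genes in every mutant library, with 951, 689 and 1848. In the wildtype libraries its values per kb were 442 and 192, and it ranked 15th and 28th. The scaffold gene rpn-2 ranked next in every mutant library and 8th and 25th in the wildtype libraries. For both genes the rank also moved between the wildtype libraries.

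The lid scaffold gene rpn-6.1 stood at the other end. It is known in worms as a subunit whose raised expression goes with higher proteasome activity and longer life. It lies on chromosome III, 6959110 to 6962001 on the minus strand, in WBcel235. Its normalised counts were 465, 412 and 475 in mutant libraries, against 1079.7 and 801 in wildtype libraries. The groups did not overlap and the mutant libraries lay close together, with means of 451 ± 33.9 in the mutant and 940.4 ± 197 in the wildtype (SD, n = 3 and n = 2). The log2 fold change was -1.05 (SE 0.39, 95% interval -1.98 to -0.11, limma adjusted p = 0.102). Over the alternatives it lay between -1.27 and -0.59, the last with reads scaled to the library total, and 0 alternatives called it. Per kb of exon it ranked 21st, 16th and 14th in mutant libraries and 3rd in both wildtype libraries.

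The paralogue rpn-6.2 was the lowest proteasome gene in each of the 5 libraries. Its normalised counts were 12.5, 35.7 and 21.4 in mutant libraries, against 37.5 and 47.8 in wildtype libraries, resting on 16 to 45 reads a library. The groups did not overlap, and the log2 fold change was -0.96 (SE 0.86, limma adjusted p = 0.451). Reads that fit both paralogues could have been split by the counting, which the sources used here do not describe.

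The remaining lid genes overlapped between the groups. For rpn-7 the normalised counts were 637, 613 and 454 in mutant libraries, against 1160.0 and 607 in wildtype libraries (log2 fold change -0.58, SE 0.46, limma adjusted p = 0.392). Exons of rpn-7 share 394 bases with nemt-1 on the other strand, so its counts can include reads of that gene. For rpn-8, the partner of rpn-11 in the lid, the counts were 641, 441 and 749.6 in mutant libraries, against 737 and 648 in wildtype libraries (log2 fold change -0.21, SE 0.42, limma adjusted p = 0.744). For rpn-3 they were 808, 686 and 760.3 in mutant libraries, against 890.5 and 531 in wildtype libraries (log2 fold change 0.12, SE 0.42, limma adjusted p = 0.852). The partners rpn-8 and rpn-11 thus had log2 fold changes on opposite sides of 0, a difference between genes that was not tested. The genes rpn-5, rpn-9 and rpn-12 had log2 fold changes of 0.22, -0.43 and -0.58 with adjusted p of 0.479 to 0.795.

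**Figure D2:**
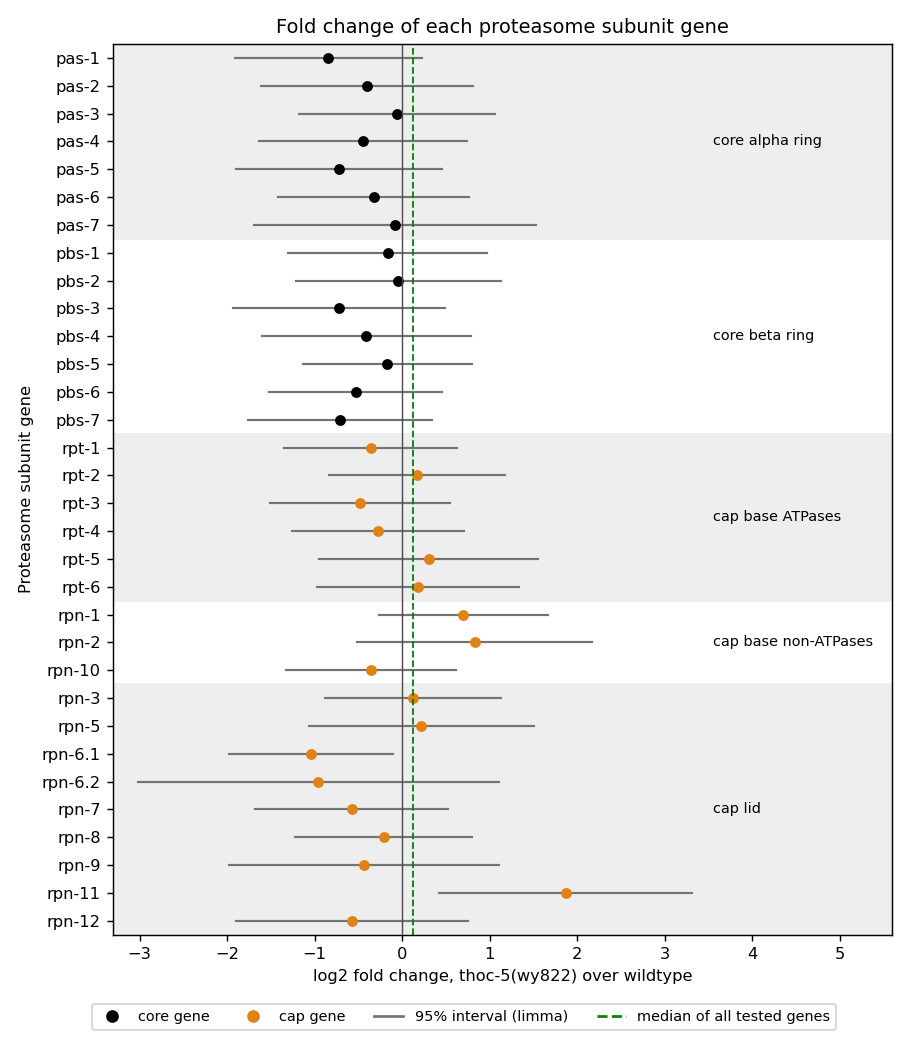
Log2 fold change of each of the 32 proteasome subunit genes, thoc-5(wy822) over wildtype, with the 95% interval from limma; shading marks the role classes and the dashed line the median of all tested genes (0.13). All intervals but those of rpn-11 and rpn-6.1 cross 0, and the 14 core genes lie on the negative side with these size factors, though 7 of them do not without wildtype replicate 1 and the core median is 0.05 with library totals.

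Core and cap genes were set against each other inside each library, since such a ratio does not depend on the scaling between libraries. The summed normalised counts of the 14 core genes were 0.273, 0.260 and 0.232 times those of the 18 cap genes in mutant replicates 1, 2 and 3. In wildtype replicates 1 and 2 this ratio was 0.353 and 0.393. The groups did not overlap, with means of 0.255 ± 0.021 in the mutant and 0.373 ± 0.028 in the wildtype (SD, n = 3 and n = 2), a log2 difference of -0.55. No test was made of this ratio.

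The ratio rested in part on 3 abundant cap genes. Without rpn-11 it was 0.301, 0.284 and 0.279 in mutant libraries and 0.368 and 0.404 in wildtype libraries, a log2 difference of -0.42. Without rpn-1, rpn-2 and rpn-11 it was 0.433, 0.412 and 0.408 in mutant libraries and 0.467 and 0.480 in wildtype libraries, a log2 difference of -0.18. Both sets of left-out genes were chosen after seeing the data. With medians in place of sums the ratio was 0.372, 0.381 and 0.336 in mutant libraries and 0.433 and 0.404 in wildtype libraries, a log2 difference of -0.21. In each of these forms every mutant library stayed below both wildtype libraries, and the difference was smaller without these genes.

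**Figure D3:**
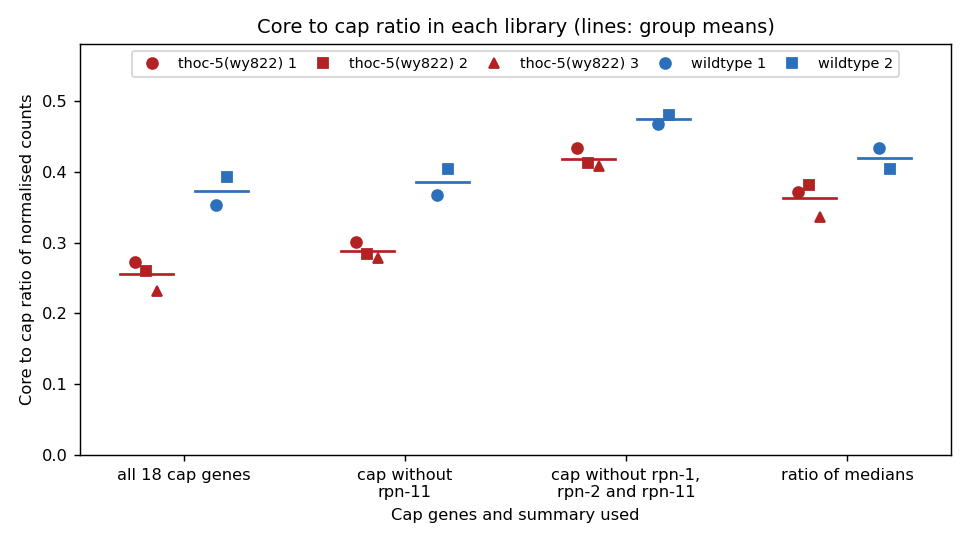
Ratio of the summed normalised counts of the 14 core genes to those of the 18 cap genes in each library, thoc-5(wy822) left of wildtype, for all genes and for the alternative forms; points are libraries and lines group means. With all genes the mutant libraries lie between 0.232 and 0.273 and the wildtype libraries at 0.353 and 0.393; the gap narrows without rpn-1, rpn-2 and rpn-11.

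Counted by genes, the median log2 fold change was -0.40 for the core and -0.24 for the cap, a difference of -0.16 that was -0.03 with quantile scaling. All 14 core genes lay below 0 with the authors' size factors, against 47.7% of all tested genes, but without wildtype replicate 1 only 7 did, with a core median of -0.04. The direction also does not hold with reads scaled to the library total, where the core median was 0.05 and the cap median 0.22, both below the 0.57 of all tested genes. Core genes are shorter than cap genes, with 801 to 1059 bases of exon in the core and 855 to 3171 in the cap (WBcel235). The 10 cap genes of up to 1500 bases had a median of -0.24, level with that of all cap genes, and the 8 longer ones -0.12. Most of these shorter cap genes are still longer than the core genes, so core and cap were not matched for length.

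Length and fold change were set side by side over the proteasome genes. The 2 longest genes, rpn-1 and rpn-2, had the highest log2 fold changes after rpn-11. Across the 32 genes log2 fold change and exon length correlated with a Spearman rho of 0.36, against 0.097 across the 13556 tested genes with an annotated length. Within the 14 core genes the rho was 0.37 and within the 18 cap genes 0.14. The 6 proteasome genes above 1500 and up to 2000 bases had a median log2 fold change of -0.47. Over the tested genes with an annotated length the median log2 fold change was 0.11 in the length range of the core and 0.15 in that of the cap. It was 0.59 for those above 3000 and up to 4000 bases, the lengths of rpn-1 and rpn-2. These are correlations across genes, which share the libraries and are not independent replicates. The part of length in the results was not tested.

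Levels per kb of exon were more even in the core than in the cap in each library but wildtype replicate 1. The median over core genes of the group means was 229 normalised counts per kb in mutant and 304 in wildtype libraries, and over cap genes 353 in mutant and 381 in wildtype libraries. The coefficient of variation across the core genes was 37.7%, 37.0% and 42.6% in mutant libraries and 41.3% and 42.2% in wildtype libraries. Across the cap genes it was 45.6%, 46.4% and 87.4% in mutant libraries and 35.7% and 49.3% in wildtype libraries. The cap genes include rpn-6.2, the lowest in every library, and rpn-11, the highest in every mutant library. The coefficient without these genes was not computed, so the contrast with the core may rest on them. In mutant replicate 3 rpn-11 stood at 1848 per kb against a cap median of 356, and it is itself part of the 87.4%.

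The order of the 32 genes was more alike among mutant libraries than elsewhere. Levels per kb correlated between mutant libraries with a Spearman rho of 0.84 to 0.89, between the wildtype libraries at 0.60, and between a mutant and a wildtype library at 0.39 to 0.67. The SD of the log2 difference between libraries was 0.43 to 0.50 among mutant pairs, 0.52 for the wildtype pair and 0.51 to 0.87 between the groups. Over all tested genes these SDs were 1.64 to 1.78, 2.13 and 2.23 to 3.50 in the same order of pairs. The proteasome genes thus differed less between any 2 libraries than all tested genes did, but genes of like level were not compared. These values are descriptions over genes of the same libraries.

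The genes are spread over the genome, with 10 on chromosome I, 7 on II, 7 on III, 3 on IV, 5 on V and 0 on X in WBcel235. Of the 14 core genes 7 lie on chromosome I, and of the 18 cap genes 3. An annotated gene overlaps 12 of the 32. Besides rpn-7 and rpt-4 the exonic overlaps were at most 140 bases, and rpn-11 shares 16 bases with pqn-48 on the other strand.

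Genes that act with the proteasome were taken from lists written from general knowledge. The counts of calls in these short lists stand beside a share of 12.9% called over all tested genes. Of 8 associated factors 0 were called, and their median log2 fold change was -0.30. The gene hecd-1, a ubiquitin ligase of the HECT type, had normalised counts of 2506, 3375 and 3311 in mutant libraries, against 1615 and 1115 in wildtype libraries (log2 fold change 1.18, SE 0.43, limma adjusted p = 0.0964). The gene usp-14, a deubiquitinase that docks on the cap, had 141, 134 and 267 in mutant libraries, against 498 and 265 in wildtype libraries (log2 fold change -1.08, SE 0.55, limma adjusted p = 0.200). The groups were separate for hecd-1, while for usp-14 mutant replicate 3 reached wildtype replicate 2.

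Of 6 genes of the SKN-1A pathway 0 were called, with a median log2 fold change of 0.27. The gene skn-1, which encodes SKN-1A and other isoforms that gene counts do not separate, had normalised counts of 961, 3578 and 4133 in mutant libraries, against 855 and 731 in wildtype libraries. Mutant replicate 1 stood near the wildtype libraries, and the log2 fold change was 1.61 (SE 0.70, limma adjusted p = 0.142). The gene wdr-23, a negative regulator of SKN-1, had 846, 1061 and 632 in mutant libraries, against 1649 and 3102 in wildtype libraries. The groups did not overlap, with a log2 fold change of -1.45 (SE 0.48, limma adjusted p = 0.0790). The processing genes png-1 and ddi-1 (listed as C01G5.6) had log2 fold changes of 0.40 and -0.86, with adjusted p of 0.704 and 0.451.

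Upstream of the proteasome, CDC-48 extracts tagged proteins from complexes and membranes. Of the 11 genes of this list 0 were called, 10 lay within 1 of 0, and the median log2 fold change was -0.16. The gene ufd-2, which lengthens ubiquitin chains, had normalised counts of 428, 565 and 505 in mutant libraries, against 933 and 959 in wildtype libraries (log2 fold change -0.93, SE 0.38, limma adjusted p = 0.128). The adaptor gene ubxn-1 had 107, 37.9 and 41.9 in mutant libraries, against 131 and 140.2 in wildtype libraries (log2 fold change -1.27, SE 0.69, limma adjusted p = 0.222). In both genes every mutant library lay below both wildtype libraries.

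Ubiquitin itself and the enzyme that activates it gave 0 calls of 3 genes. The polyubiquitin gene ubq-1 had normalised counts of 12971, 9727 and 13023 in mutant libraries, against 10001 and 4983 in wildtype libraries (log2 fold change 0.74, SE 0.58, limma adjusted p = 0.385). The activating enzyme gene uba-1 had 2204, 3655 and 4618 in mutant libraries, against 2286 and 1483 in wildtype libraries (log2 fold change 0.86, SE 0.51, limma adjusted p = 0.256). For both the groups overlapped through the library wildtype replicate 1.

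Of 19 tested genes for ubiquitin-conjugating enzymes, from a list of 23, 0 were called and the median log2 fold change was -0.06. The gene ubc-22 had normalised counts of 86.9, 46.9 and 42.9 in mutant libraries, against 9.59 and 9.56 in wildtype libraries (log2 fold change 2.43, SE 0.82, limma adjusted p = 0.0833). The gene ubc-8 had 37 reads over the mutant libraries and 0 over the wildtype libraries, at least 8.05-fold higher in the mutant if the floor is set at 3 reads over the whole wildtype group (limma adjusted p = 0.0849). Their groups did not overlap, and neither passed the test.

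**Figure D4:**
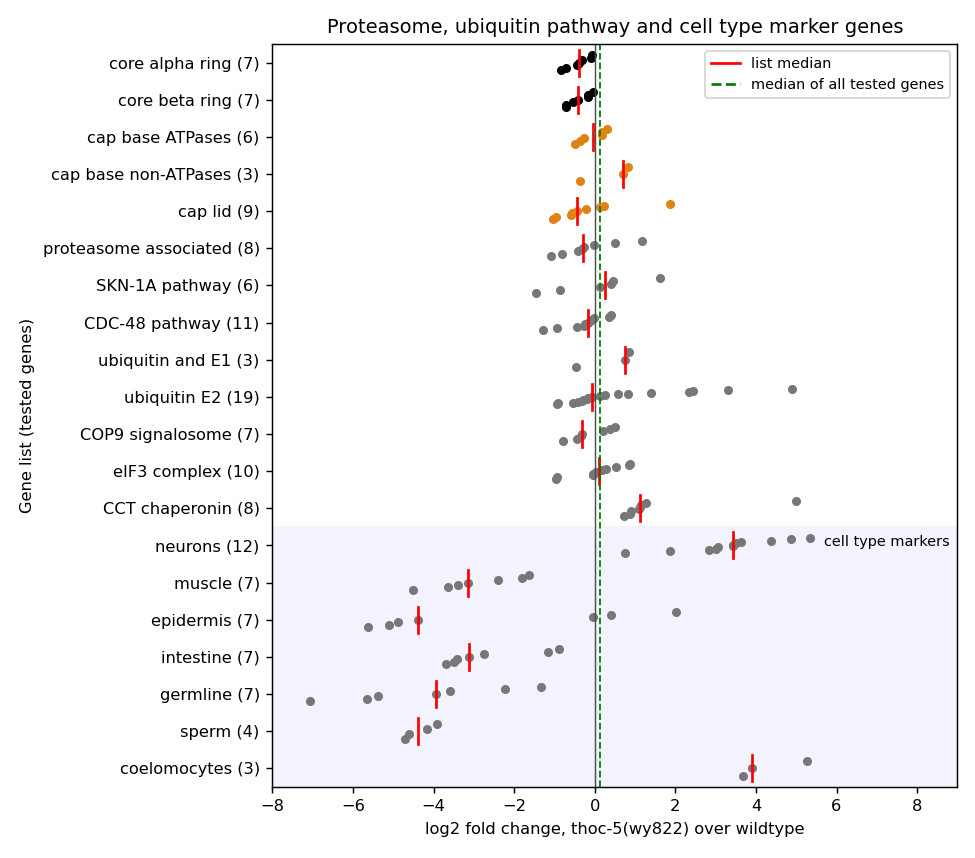
Log2 fold change, thoc-5(wy822) over wildtype, of the tested genes of each list: the proteasome classes, genes acting with the proteasome, the COP9 signalosome, eIF3 and CCT chaperonin complexes, and the cell type markers (shaded); points are genes, bars are medians and the dashed line is the median of all tested genes (0.13). The proteasome genes other than rpn-11 and rpn-6.1 lie within 1 of 0, and the CCT chaperonin genes lie between 0.72 and 4.99.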

How the data were processed

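The authors deposited 1 table. The submitters' processing notes name the build ce10 and the tools DESeq2, STAR 2.4.2a and Trim Galore, while in the sources used here no counter or annotation is given. The deposited values per library are a signal, gene counts divided by a size factor. The deposited table also holds the authors' log2 fold changes, a test score and p-values, per the file headers. Whole reads were recovered for 100% of values within a tolerance of 1e-04; on them edgeR 4.0.16 called 0 genes and DESeq2 1.42.0 called 3718. SMARTer v4 and Nextera XT kits, named in the labels, do not mark strand. Positions and exon lengths are from the Ensembl annotation of WBcel235, matched by name.

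The test was limma 3.58.1 in R 4.3.3 (trend, two-sided, threshold 0.05) on log2(normalised count + 1), where 2 or more libraries reached a normalised count of 10, Benjamini-Hochberg adjusted over 13787 genes. A fold change on that scale understates the change of low genes. Values per library were given for 12 genes chosen as the 2 most abundant per length of each role class and then the next most abundant of all, for the 3 smallest p of each role class, and for the 2 smallest p of each list without calls, or its called genes; the others were described by ranges. The genes and lists were chosen with earlier results of these data known. Alternatives were pseudocounts of 0.5 and 8, no filter or one of 50, other scalings, leaving out each library, a replicate block, edgeR, DESeq2 and the deposited p-values. Scripts were tested on simulated counts.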

Additional observations from a re-analysis of the deposited data

How the results depend on the processing

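Of 543 values of single proteasome genes under the alternatives, 506 kept direction and side of the threshold, 1 (rpn-11 in DESeq2) passed it and 36, over 19 of the 32 genes, changed sign; the cause was not tested. Genes called over the table, 1777 in limma, numbered 3217 with a pseudocount of 8, 1079 with no filter, 2998 with quantile scaling, 3718 in DESeq2, 3717 in the authors' deposited table, and 0 in edgeR (3869 at an unadjusted p under 0.05). Leaving out single libraries gave 0 to 2647. A lone wildtype library was taken to vary as the mutant ones do. With the replicate block 0 were called, in both forms; the deviations of same-numbered libraries correlated at 0.0093 for number 1 and 0.11 for number 2, but with 2 wildtype libraries these deviations are mirror images, so the check says little, and no label pairs the libraries. Calls among the proteasome genes numbered 1 in DESeq2 and 0 under every other alternative. Pathway and complex list genes called, 1 in limma, were 2 with a pseudocount of 8, 3 with quantile scaling, 3 in DESeq2, 2 in the authors' deposited table, 0 in edgeR, 0 with the block, and 0 to 3 without single libraries.

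The median over proteasome genes was 0.12 with reads scaled to the library total, against -0.34. The core minus cap median, -0.16, was -0.032 with quantile scaling and -0.33 to -0.17 without single libraries. The log2 difference of the core to cap ratio, -0.55, was -0.21 with medians, -0.42 without rpn-11 and -0.18 without rpn-1, rpn-2 and rpn-11.

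Signs changed with quantile scaling for rpn-3 (-0.12), rpn-5 (-0.032) and rpt-2 (-0.087), and in edgeR for rpn-3 (-0.015) and rpn-5 (-0.073). With reads scaled to the library total log2 fold changes became 0.058 for pas-2, 0.40 for pas-3, 0.012 for pas-4, 0.13 for pas-6, 0.37 for pas-7, 0.30 for pbs-1, 0.42 for pbs-2, 0.051 for pbs-4, 0.29 for pbs-5, 0.25 for rpn-8, 0.026 for rpn-9, 0.11 for rpn-10, 0.10 for rpt-1 and 0.18 for rpt-4. Without single libraries they ranged from -0.88 to 0.074 for pas-2, -0.29 to 0.17 for pas-3, -0.67 to 0.017 for pas-6, -0.79 to 0.62 for pas-7, -0.41 to 0.089 for pbs-1, -0.47 to 0.38 for pbs-2 and -0.36 to 0.025 for pbs-5. In the cap they ranged from -0.25 to 0.50 for rpn-3, -0.51 to 0.95 for rpn-5, -0.38 to 0.0040 for rpn-8, -1.36 to 0.50 for rpn-9, -0.17 to 0.51 for rpt-2, -0.33 to 0.94 for rpt-5 and -0.070 to 0.48 for rpt-6. For eif-3.C the range was -0.037 to 1.72. Depth limits rpn-6.2 most.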

Other observations

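Other multi-subunit complexes gave values to set beside the proteasome genes, and beside the 12.9% of all tested genes that were called. The COP9 signalosome, a relative of the proteasome lid that trims the ubiquitin-like protein NEDD8, had 0 of 7 tested genes called, all 7 within 1 of 0 on the log2 scale and a median log2 fold change of -0.32. Its gene csn-5, a relative of rpn-11, had normalised counts of 118, 85.9 and 136 in mutant libraries, against 203 and 184 in wildtype libraries (log2 fold change -0.79, SE 0.50, limma adjusted p = 0.287). For csn-2 they were 502, 481 and 416 in mutant libraries, against 356 and 302 in wildtype libraries (log2 fold change 0.50, SE 0.39, limma adjusted p = 0.385). The translation initiation factor eIF3, whose subunits share folds with the lid, had 0 of 10 tested genes called, all 10 within 1 of 0 and a median of 0.10. Its gene eif-3.K had 114, 74.8 and 69.2 in mutant libraries, against 225 and 114 in wildtype libraries (log2 fold change -0.93, limma adjusted p = 0.292). Its gene eif-3.C had 1232, 1335 and 1248 in mutant libraries, against 1304 and 385 in wildtype libraries (log2 fold change 0.84, limma adjusted p = 0.323).

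The CCT chaperonin, which folds actin and tubulin, had 1 of 8 genes called higher in the mutant, cct-8, where 6.97% of all tested genes were called higher. All 8 had a log2 fold change above 0, with a median of 1.11, and in 7 all mutant libraries stood above both wildtype libraries, an order found for 30.1% of all tested genes. For cct-8 the normalised counts were 218, 145 and 284 in mutant libraries, against 20.1 and 1.06 in wildtype libraries, the last being 1 read. Its log2 fold change was 4.99 (SE 1.09, 95% interval 2.36 to 7.61, limma adjusted p = 0.0431), and the call was lost without any one mutant replicate, without wildtype replicate 2, and in edgeR (adjusted p = 0.108). The other 7 CCT genes had log2 fold changes of 0.72 to 1.28 and were not called.

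Among the conjugating enzymes ubc-17, named after its values were seen, had normalised counts of 750.4, 469 and 469 in mutant libraries, against 164 and 1.06 in wildtype libraries (log2 fold change 4.90, limma adjusted p = 0.0854).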
